A study of Mus musculus with 12 samples.

Results

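Molecular chaperones of the heat shock protein families and the subunits of the cytosolic chaperonin were followed in RNA from mouse oocytes with and without *Lsm14b*, split by sucrose gradient into polysome and ribonucleoprotein (RNP) pools. The genes were taken by symbol: the families Hspa, Hspb, Hspd, Hspe, Hsph and Hsp90, the J-domain families Dnaja, Dnajb and Dnajc, the *Cct* genes and *Tcp1*. This gave 83 of the 24259 genes listed.

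Oocytes at the germinal vesicle (GV) stage, in which meiosis is still arrested, came from mice aged 3 weeks, 46 h after 5 IU of pregnant mare serum gonadotropin. Wild-type (WT) mice were set against knockout (KO) mice homozygous for a reporter-tagged knockout-first insertion in *Lsm14b*, an allele present throughout the body rather than in the oocyte alone, both on a C57BL/6J background. Cycloheximide, which holds ribosomes on the mRNA, was present in all groups. Gradient fractions 1 to 10 formed the RNP pool and fractions 11 to 28 the polysome pool, with 3 libraries for each pool of each genotype and 12 in all. A lysate held about 1500 oocytes, so every library is a pool of animals, and nothing in the sources says that libraries of a group came from separate lysates. The p-values therefore measure the spread between these libraries, which may be technical.

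Chaperones bind unfolded or partly folded proteins and keep them from aggregating. HSP70 proteins work in cycles of ATP hydrolysis that J-domain proteins (the Dnaj genes) start and exchange factors such as HSP110 (*Hsph1*) end, HSP90 acts later on kinases, receptors and other clients, and the ring-shaped CCT chaperonin (also called TRiC) folds actin, tubulin and several cell cycle regulators. Separate sets serve the endoplasmic reticulum and the mitochondrion. A fully grown oocyte is transcriptionally silent, so its proteins are made from stored maternal mRNA, and LSM14B is an RNA-binding protein of the RNP complexes that hold such mRNA.

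The unit throughout is FPKM, fragments per kilobase of transcript scaled for library depth, which corrects for transcript length and is a relative measure. The scaling between libraries that the authors' software applied was not checked. Because both pools were amplified and sequenced to fixed libraries, a difference in FPKM is a change in share of a pool's RNA, and in such bulk samples fewer cells and less RNA per cell cannot be told apart. *Lsm14b* itself stood at 11.3, 15.3 and 13.2 FPKM in the WT polysome libraries and at 34.6, 29.3 and 27.4 FPKM in the WT RNP libraries, against 0.893 FPKM or less in all 6 KO libraries. Estimated depth was 4717000 to 7874000 fragments per library, at which 1 fragment per kilobase of effective length was worth 0.127 to 0.212 FPKM. KO polysome replicate 2 stood apart through *Mir300*, listed at 170809 FPKM. The 10 oocyte markers summed to 21797 to 23457 FPKM in WT and 25963 to 28031 FPKM in KO polysome libraries, and to 5086 to 5186 and 6945 to 7306 FPKM in WT and KO RNP libraries. The 11 granulosa and cumulus markers summed to 21.9 to 73.0 FPKM in WT and 75.0 to 96.4 FPKM in KO polysome libraries, and to 26.5 to 33.7 and 38.7 to 60.0 FPKM in WT and KO RNP libraries. *Amhr2*, *Fst* and *Ptx3* stayed below 1 FPKM in every library, *Ptx3* was listed at 0 in all of them, and *Foxl2* was listed at 0 in all but KO RNP replicate 2. *Inha* was at 9.58, 0 and 8.11 FPKM in WT and 51.4, 39.4 and 39.5 FPKM in KO polysome libraries, *Inhba* at 0.252 FPKM or less in WT and 3.72 to 11.9 FPKM in KO, and *Fshr* at 0.700 FPKM or less in WT and 3.14 to 6.74 FPKM in KO. Not all of these markers rose there. *Cyp19a1* was at 62.0, 19.0 and 32.0 FPKM in WT and 14.6, 23.5 and 34.5 FPKM in KO polysome libraries. *Kitl* was at 1.24, 2.62 and 0.832 FPKM in WT and 0.229, 2.06 and 2.16 FPKM in KO. Both marker sums were thus higher in KO than in WT in both pools without overlap, and their part in the chaperone results was not tested.

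The most abundant RNAs were those of *Hsp90aa1*, the stress-inducible cytosolic HSP90, and *Dnajb6*, a J-domain protein that restrains aggregation, with means of 389 and 379.9 FPKM over the 12 libraries. *Dnajb1*, *Dnajb4* and *Dnaja2*, which are J-domain partners of cytosolic HSP70, followed at 282, 238 and 200.3 FPKM. These 5 genes held 47.0% of the summed FPKM of the members, and 9 members averaged at least 100 FPKM. At the other end, 23 members averaged less than 1 FPKM and 9 were listed at 0 in every library: *Cct6b*, *Hspa12b*, *Dnajb5*, *Dnajb8*, *Dnajc12*, *Dnajc22*, *Hspb2*, *Hspb7* and *Hspb8*. The stress-inducible HSP70 genes *Hspa1a* and *Hspa1b*, near-identical copies between which reads cannot be assigned with certainty, reached at most 2.27 and 0.907 FPKM. Among the 8 genes with a numbered Hspb symbol only *Hspb1* and *Hspb6* exceeded 12 FPKM in any library, and none was called in any comparison below. *Hspb9*, a small heat shock protein best known from the testis, reached 11.4 FPKM in WT RNP replicate 2 and was listed at 0 in the other WT RNP libraries and in 3 KO libraries. Together the members summed to 3051 to 3240 FPKM in WT polysome libraries and 3963 to 4397 FPKM in KO polysome libraries, with no overlap, and to 2445 to 2759 FPKM in WT and 2700 to 2769 FPKM in KO RNP libraries, which overlapped.

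The first question was whether the absence of LSM14B changed the RNA of these genes within each pool. A gene was tested where at least 3 libraries entering the comparison reached 1 FPKM, and was called at a Benjamini-Hochberg adjusted p under 0.05 over all genes tested (limma on log2(FPKM + 1)). In the polysome pool 59 of the 83 members were tested. Of these 11 rose in KO, where 5.64% of all 9536 genes tested rose, and 4 fell, where 4.73% of all genes fell. For the RNP pool 61 members were tested, of which 12 rose against 10.5% of all genes and 7 fell against 10.2%. The median log2 difference (KO minus WT) of the tested members was 0.26 in the polysome pool, beside 0.10 for all genes, and 0.18 in the RNP pool, beside 0.05. These 2 comparisons share no library, though the pools of a genotype may come from the same lysates. A member called in both went the same way in both: *Cct3*, *Cct4*, *Cct7*, *Dnaja2*, *Hspa5*, *Hspa8* and *Hsph1* rose and *Dnajb4*, *Dnajc3*, *Dnajc14* and *Dnajc30* fell, 11 genes that made up 73.3% of the 15 polysome calls and 57.9% of the 19 RNP calls. How often calls over all genes were shared between the pools, and in which direction, was not counted, so this overlap is not set apart from that of other genes.

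**Figure D1:**
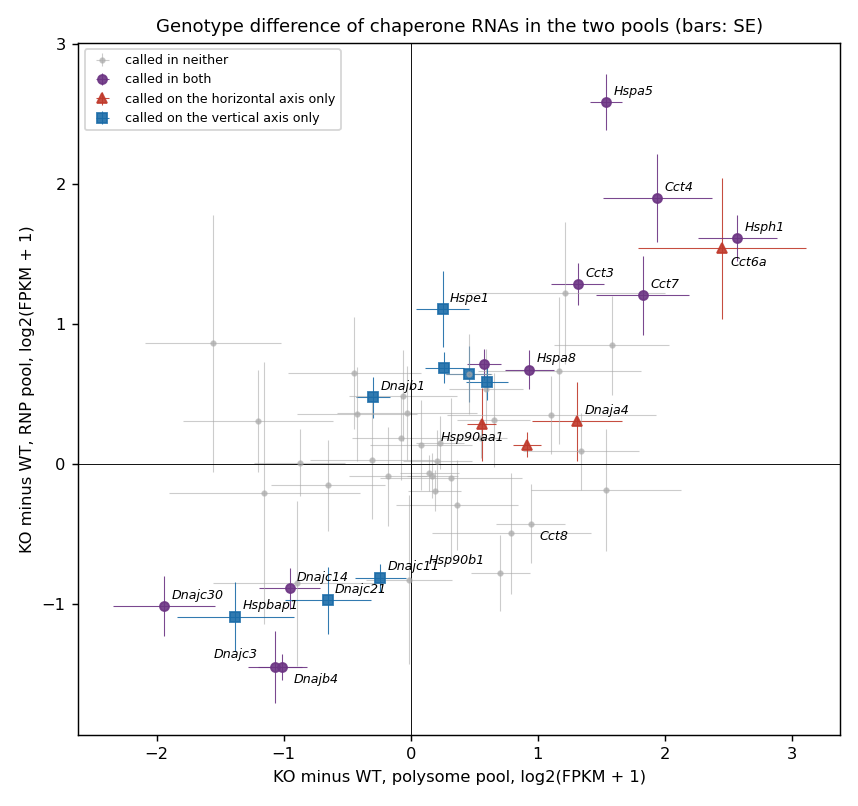
Log2 difference (KO minus WT, on log2(FPKM + 1)) of the 58 members tested in both pools, in the polysome pool on the horizontal axis and in the RNP pool on the vertical axis, with bars for the SE. The 7 genes that rose in both pools lie at the upper right, led by *Hspa5*, *Cct4* and *Hsph1*, and the 4 that fell in both lie at the lower left.

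The polysome calls depended on the libraries. Without KO polysome replicate 2, the library with the *Mir300* value, 4 members were called in place of 15 (149 higher and 249 lower over all genes, in place of 538 and 451), and without KO polysome replicate 3 there were 5. *Cct3*, *Hspa5*, *Hsph1* and *Hsp90aa1* were called whichever library was left out, and *Cct3*, *Hspa5* and *Hsph1* also under every other setting tried. Of the 19 RNP calls 11 held under every setting. With 1 KO RNP library left out, 538 to 555 of all genes rose in the RNP pool in place of 1044, and 7 to 9 members in place of 12.

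RNAs of the CCT chaperonin were higher in KO oocytes for part of the complex. Of the 10 *Cct* genes 8 were tested in either pool, the 8 subunits of the ring, while *Cct6b* was listed at 0 and *Cct8l1* was above 0 in 2 libraries. In the polysome pool 4 rose, where 5.64% of all genes rose, and 0 fell, where 4.73% fell. In the RNP pool 3 rose and 0 fell, where 10.5% and 10.2% of all genes did. The median log2 differences were 1.13 in the polysome and 0.87 in the RNP pool, beside 0.10 and 0.05 for all genes. *Cct3*, *Cct4* and *Cct7* rose in both. However, *Cct4* and *Cct6a* passed the polysome filter only through their KO libraries, so their polysome rises and their part in the polysome median are no independent support. *Cct6a* passed the RNP filter in the same way, so its part in the RNP median is no independent support either.

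*Cct3*, the gamma subunit, stood at 30.5, 38.8 and 40.8 FPKM in the WT polysome libraries and at 112, 78.3 and 88.8 FPKM in the KO ones. In the RNP pool it went from 22.7, 22.4 and 21.7 FPKM to 56.0, 58.8 and 52.5 FPKM. Every KO library was above every WT library of its pool. The means differed 2.54-fold and 2.51-fold, with log2 differences of 1.31 (SE 0.21, adjusted p = 0.00782) and 1.29 (SE 0.15, adjusted p = 0.000587).

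*Cct4*, the delta subunit, was low in WT, with 1.11, 1.15 and 0.428 FPKM in polysome and 1.76, 1.76 and 1.92 FPKM in RNP libraries. It passed the polysome filter through the KO libraries, since WT polysome replicate 3 was at 0.428 FPKM. In KO it reached 6.80, 6.07 and 5.63 FPKM and 8.43, 8.31 and 12.2 FPKM. The groups did not overlap in either pool, and the log2 differences of 1.94 (SE 0.43, adjusted p = 0.0251) and 1.90 (SE 0.31, adjusted p = 0.00317) were nearly alike. The polysome call was lost without WT replicate 3 and without any of the KO replicates, whereas the RNP call held throughout. A subunit at 1 or 2 FPKM rests on few fragments, so the WT level of *Cct4* is the less certain side of this comparison.

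*Cct7*, the eta subunit, gave 5.73, 8.17 and 14.4 FPKM in WT and 44.4, 30.3 and 28.7 FPKM in KO polysome libraries. The RNP libraries gave 4.16, 4.93 and 3.40 FPKM in WT and 12.3, 11.4 and 9.08 FPKM in KO. KO was above WT in every library of both pools, by 1.82 (SE 0.37, adjusted p = 0.0181) and 1.21 (SE 0.28, adjusted p = 0.0161) on the log2 scale. The polysome call was lost without any 1 of the KO polysome replicates and the RNP call without KO RNP replicate 1 or 2. An exon of *Cct7* overlaps *Pradc1* on the other strand, and without strand in the counts the genes' reads cannot be told apart there.

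*Cct6a*, the zeta subunit, was at 0, 3.32 and 0 FPKM in WT and 4.78, 10.3 and 9.71 FPKM in KO polysome libraries. With 2 of 3 WT libraries at 0 it passed the filter through the KO libraries, and its call (2.45, SE 0.66, adjusted p = 0.0497) held only where the library left out was WT polysome replicate 2. In RNP libraries it was at 0.342, 0 and 2.65 FPKM in WT and 3.77, 3.72 and 4.38 FPKM in KO without passing the threshold (log2 difference 1.54, adjusted p = 0.0588). Its exons overlap *Psph*.

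The other 4 subunits were not called between genotypes in either pool. *Cct8* came closest in the polysome pool, with 19.0, 23.9 and 23.4 FPKM in WT and 30.4, 50.7 and 52.2 FPKM in KO (log2 difference 0.94, SE 0.27, adjusted p = 0.0595), but in the RNP pool it stood at 14.9, 14.6 and 14.7 FPKM in WT and 15.0, 7.11 and 11.4 FPKM in KO. *Cct2* averaged 14.6 ± 3.46 (SD, n = 3) and 22.3 ± 2.72 FPKM in WT and KO polysomes, and its RNP libraries were at 8.19, 5.55 and 10.8 FPKM in WT and 11.0, 11.7 and 13.4 FPKM in KO, without overlap in either pool. *Tcp1*, the alpha subunit, averaged 45.6 ± 4.82 and 53.6 ± 6.33 FPKM there, and *Cct5* 30.5 ± 2.77 and 34.4 ± 0.905 FPKM. Levels per length therefore spread widely across subunits of 1 complex, and in WT polysomes *Cct4* and *Cct6a* averaged 0.897 and 1.11 FPKM where *Tcp1* averaged 45.6 FPKM.

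**Figure D2:**
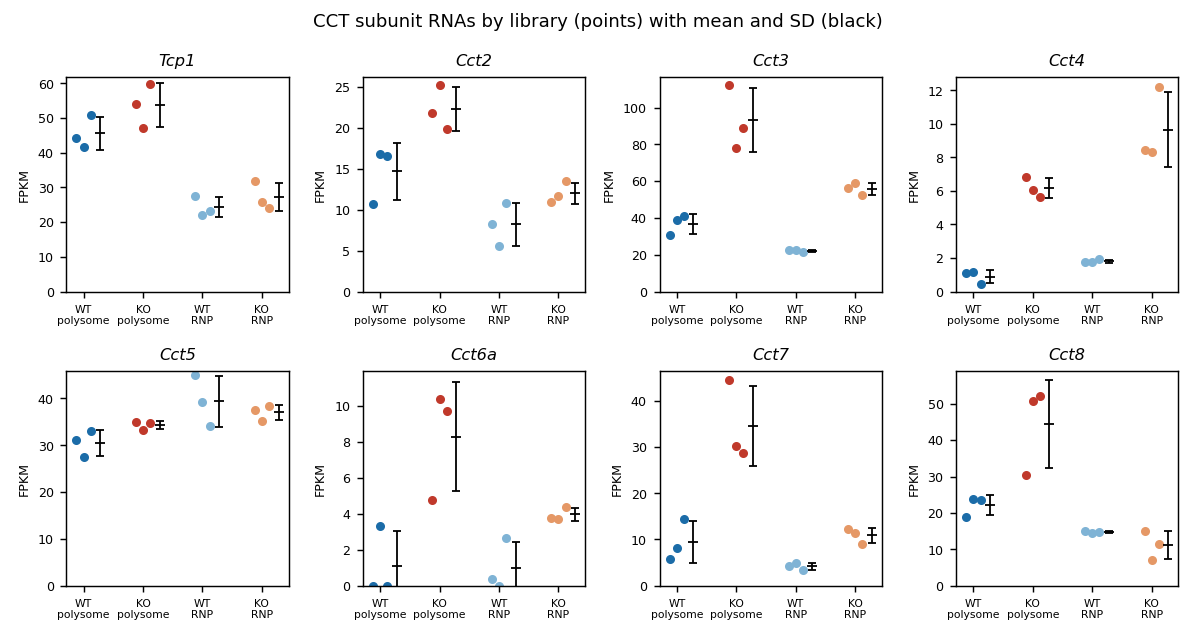
FPKM (vertical axes, each from 0) of the 8 CCT subunits in each of the 12 libraries by genotype and pool, with the mean and SD of each group of 3 in black. *Cct2*, *Cct3*, *Cct4*, *Cct6a* and *Cct7* are above WT in all 3 KO libraries of both pools (*Cct2* uncalled in both and *Cct6a* called in polysomes alone), while *Cct5* and *Cct8* are so in the polysome pool alone and *Tcp1* in neither.

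Among cytosolic HSP70 and HSP110 genes, *Hsph1* and *Hspa8* rose in both pools and none fell, of 8 tested in the polysome pool and 7 in the RNP pool. Of all genes 5.64% rose and 4.73% fell in the polysome pool, and 10.5% and 10.2% in the RNP pool. *Hsph1*, the HSP110 exchange factor, was at 24.1, 57.8 and 25.1 FPKM in WT polysome libraries and at 190.4, 226 and 185 FPKM in KO ones. Its RNP libraries were at 22.6, 26.3 and 32.0 FPKM and 79.3, 90.1 and 82.5 FPKM. WT polysome replicate 2 stood above the others of its group yet far below any KO library. The means differed 5.61-fold in the polysome pool and 3.11-fold in the RNP pool, and the log2 differences were 2.57 (SE 0.31, adjusted p = 0.00318) and 1.61 (SE 0.16, adjusted p = 0.000307).

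*Hspa8*, the constitutive cytosolic HSP70, gave 82.1, 90.0 and 67.9 FPKM in WT and 120.3, 167 and 177 FPKM in KO polysome libraries. It gave 48.1, 46.7 and 58.6 FPKM in WT and 76.4, 87.4 and 82.2 FPKM in KO RNP libraries. The groups were apart in both pools, with log2 differences of 0.93 (SE 0.19, adjusted p = 0.0198) and 0.68 (SE 0.14, adjusted p = 0.00985). The polysome call was lost without KO polysome replicate 2 or 3. Within *Hspa8* lie 3 small nucleolar RNAs. *Hspa2*, an HSP70 best known from the testis, spread too far for a call, with 16.6, 40.3 and 12.2 FPKM in WT and 7.78, 9.66 and 3.00 FPKM in KO polysome libraries.

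The cytosolic HSP90 genes each rose in 1 pool. *Hsp90aa1* stood at 393, 400.1 and 338 FPKM in WT and 676, 741 and 713 FPKM in KO polysome libraries, a log2 difference of 0.91 (SE 0.11, adjusted p = 0.00296). In RNP libraries it was at 210.2, 223 and 236 FPKM and 239, 256 and 242 FPKM, apart by 0.14 (SE 0.089, adjusted p = 0.309). The polysome libraries of the genotypes were thus far apart and the RNP libraries barely so. The constitutive *Hsp90ab1* stood at 58.2, 54.2 and 61.6 FPKM in WT and 89.4, 91.8 and 81.5 FPKM in KO RNP libraries and rose there by 0.59 (SE 0.12, adjusted p = 0.0107), a call lost without KO RNP replicate 1 or 2. In the polysome pool it was at 62.9, 51.1 and 66.4 and 93.8, 86.8 and 93.0 FPKM, with no overlap and a log2 difference of 0.60 that missed the threshold (adjusted p = 0.0560).

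Of 10 members placed in the endoplasmic reticulum, 9 were tested in each pool, and *Hspa5* rose and *Dnajc3* fell in both. The shares over all genes were 5.64% higher and 4.73% lower in the polysome pool, and 10.5% and 10.2% in the RNP pool. *Hspa5* encodes BiP, the HSP70 of that compartment. It was at 15.0, 11.0 and 18.1 FPKM in the WT RNP libraries and at 94.2, 84.2 and 96.6 FPKM in the KO ones, means that differed 6.24-fold. In the polysome pool it went from 106, 106 and 106 FPKM to 281, 321 and 328 FPKM, a 2.93-fold difference. No KO library came near a WT library of its pool, and the log2 differences were 2.59 (SE 0.20, adjusted p = 6.22e-05) and 1.54 (SE 0.12, adjusted p = 0.000686).

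*Dnajc3* encodes a J-domain partner of BiP that also inhibits the stress kinase PERK. Its polysome libraries held 47.3, 54.6 and 56.2 FPKM in WT and 28.4, 20.5 and 25.3 FPKM in KO, and its RNP libraries 26.6, 44.1 and 43.3 FPKM in WT and 9.91, 15.4 and 14.2 FPKM in KO. All KO libraries lay below all WT libraries of their pool. The log2 differences were -1.07 (SE 0.21, adjusted p = 0.0177), a call lost without KO polysome replicate 2 or 3, and -1.45 (SE 0.26, adjusted p = 0.00493).

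*Hsp90b1*, the HSP90 of the same compartment, had differences of opposite sign in the pools, neither of them past the threshold. It was at 21.8, 17.3 and 20.5 FPKM in WT and 36.6, 30.5 and 31.8 FPKM in KO polysome libraries (log2 difference 0.71, adjusted p = 0.0862). In the RNP pool it was at 15.8, 11.6 and 15.1 FPKM in WT and 8.46, 9.45 and 5.88 FPKM in KO (log2 difference -0.78, adjusted p = 0.0717). The groups did not overlap in either pool. *Dnajb11*, another BiP partner, averaged 46.5 ± 9.03 and 52.8 ± 6.41 FPKM in WT and KO polysomes. *Dnajb9* and *Dnajc10*, of the same set, had log2 differences of 1.58 and 1.34 in the polysome pool, with adjusted p = 0.0610 and 0.0995.

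**Figure D3:**
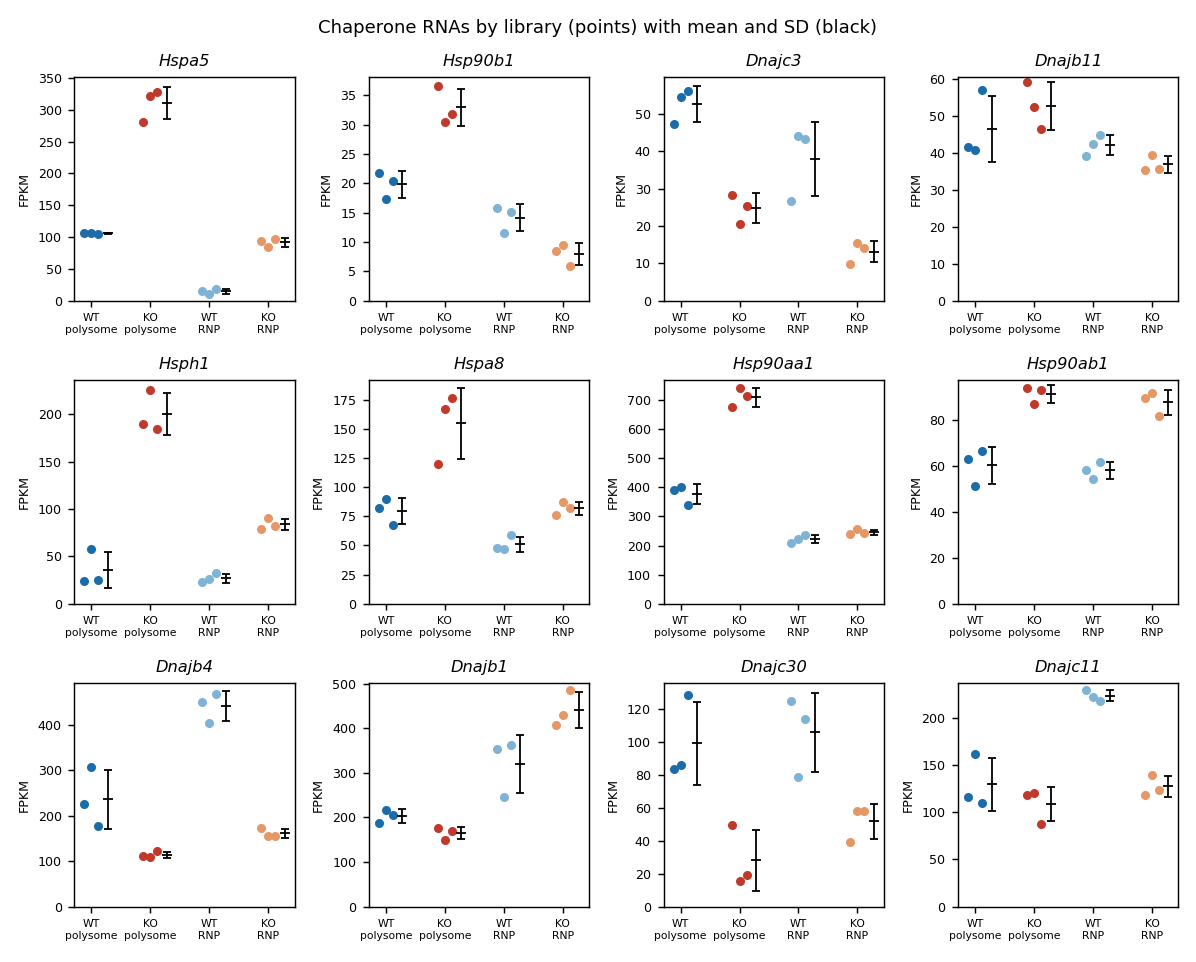
FPKM (vertical axes, each from 0) of 12 chaperone genes in each of the 12 libraries by genotype and pool, with the mean and SD of each group of 3 in black. *Hspa5* and *Hsph1* are higher in KO in both pools, *Dnajc3*, *Dnajb4* and *Dnajc30* lower in both, and *Hsp90aa1* separates by genotype in the polysome pool far more than in the RNP pool.

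*Hspa5*, *Hsp90b1* and *Dnajc3* share a promoter sequence that the rule did not use and that is shown because the genotype calls of their RNAs were not alike. The endoplasmic reticulum stress element consists of CCAAT and CCACG separated by 9 bases, and was searched on both strands in the 300 bases from 250 before to 50 after each start of a gene in RefSeq (GRCm38.p6). Of the members 68 matched that table, with 87 such windows, and these 3 genes alone held the element (3.45% of member windows, against 0.119% of all 32851 windows). Below are 100 bases around the match, 5′ to 3′ on the gene's strand, with positions counted from the start, with the match in capitals.
Hspa5, chr2:34771984-34772083, plus strand, positions -106 to -7: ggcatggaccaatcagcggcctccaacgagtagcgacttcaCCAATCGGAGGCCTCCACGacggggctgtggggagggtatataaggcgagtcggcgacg
Hsp90b1, chr10:86705493-86705592, minus strand, positions -148 to -49: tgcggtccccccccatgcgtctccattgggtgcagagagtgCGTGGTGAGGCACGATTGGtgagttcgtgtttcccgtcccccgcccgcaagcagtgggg
Dnajc3, chr14:118937786-118937885, plus strand, positions -146 to -47: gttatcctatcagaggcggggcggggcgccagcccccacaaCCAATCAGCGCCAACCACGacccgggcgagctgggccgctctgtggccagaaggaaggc
In *Hsp90b1* the capitals read the element on the opposite strand, and a further match begins at position -212. A match is a description of these letters and not a measured binding site. Of the 3 genes that carry it 1 rose, 1 fell and 1 was not called between genotypes.

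Of the 8 mitochondrial members, all were tested in both pools. In the RNP pool *Hspe1* and *Dnaja3* rose and *Dnajc30* and *Dnajc11* fell, and in the polysome pool *Dnajc30* alone was called, by a fall. Over all genes 10.5% rose and 10.2% fell in the RNP pool, and 5.64% and 4.73% in the polysome pool. *Hspe1*, the co-chaperonin that caps the HSP60 ring, was at 18.8, 17.1 and 9.94 FPKM in WT and 37.5, 25.5 and 37.3 FPKM in KO RNP libraries, which did not overlap (log2 difference 1.11, SE 0.27, adjusted p = 0.0194). The call was lost without KO RNP replicate 1 or 3. Its polysome libraries, at 38.9, 43.6 and 40.0 and 53.3, 38.8 and 55.9 FPKM, overlapped. *Hspd1*, which encodes HSP60 itself, was called in neither pool, with 10.9, 15.2 and 7.27 FPKM in WT and 18.8, 18.6 and 14.8 FPKM in KO RNP libraries (log2 difference 0.65, SE 0.29, adjusted p = 0.145).

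*Dnajc30*, an inner-membrane J-domain protein linked to ATP synthase, was at 83.3, 85.6 and 128 FPKM in WT and 49.4, 15.4 and 19.0 FPKM in KO polysome libraries. In RNP libraries it was at 125, 78.6 and 113 and 39.1, 57.7 and 58.0 FPKM. KO was below WT throughout, by log2 differences of -1.94 (SE 0.40, adjusted p = 0.0198) and -1.01 (SE 0.21, adjusted p = 0.0102). The polysome call was lost without WT polysome replicate 3 or KO polysome replicate 2 or 3. Its exons overlap *Bud23*.

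*Dnajc11*, a J-domain protein of the cristae-organizing complex, gave 229.8, 222 and 218 FPKM in WT and 119, 139 and 124 FPKM in KO RNP libraries, groups far apart (log2 difference -0.81, SE 0.10, adjusted p = 0.000824). Its polysome libraries overlapped, at 116, 162 and 109.9 and 118, 121 and 87.5 FPKM. *Dnaja3*, a J-domain partner of mitochondrial HSP70, was at 22.7, 30.3 and 21.0 and 44.9, 33.5 and 38.5 FPKM (log2 difference 0.65, SE 0.20, adjusted p = 0.0482), a call that held only where the library left out was WT RNP replicate 2. *Hspa9*, that HSP70, was called in neither pool.

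Cytosolic class A and class B J-domain genes split in direction. *Dnajb4*, a partner of cytosolic HSP70, gave 451, 405 and 468 FPKM in WT RNP libraries and 173, 155 and 155 FPKM in KO ones. In the polysome pool it gave 225, 306 and 178 and 111, 109.8 and 122 FPKM. All KO libraries were below the lowest WT library of their pool, with log2 differences of -1.45 (SE 0.095, adjusted p = 3.33e-05) and -1.01 (SE 0.20, adjusted p = 0.0152), the latter lost without KO polysome replicate 2.

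*Dnaja2*, by contrast, rose in both pools, from 194, 181 and 168 to 235, 285 and 294 FPKM in polysome libraries (log2 difference 0.58, SE 0.13, adjusted p = 0.0308). In the RNP pool it went from 121, 125 and 151 to 223, 209 and 218 FPKM (0.71, SE 0.11, adjusted p = 0.00252). The groups did not overlap, and the polysome call was lost without WT polysome replicate 2 or 3 or KO polysome replicate 2 or 3. *Dnaja4* rose in the polysome pool, at 15.3, 18.8 and 36.0 FPKM in WT and 51.6, 42.6 and 78.6 FPKM in KO (log2 difference 1.31, SE 0.35, adjusted p = 0.0494), a call that held only where WT polysome replicate 3 was the library left out, and its exons overlap *Wdr61*. *Dnajb6* rose in the RNP pool, from 182, 160.2 and 205 to 279, 315 and 286 FPKM (log2 difference 0.69, SE 0.11, adjusted p = 0.00297). *Dnajb1*, the stress-inducible class B protein, rose in that pool from 353, 245 and 362 to 407, 429.7 and 485 FPKM, by 0.48 (SE 0.15, adjusted p = 0.0481), and kept the call only where WT RNP replicate 3 was left out.

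Among the 21 class C J-domain genes outside the endoplasmic reticulum and mitochondrial lists, 13 were tested in the polysome and 16 in the RNP pool, with 1 rise and 1 fall and with 0 rises and 2 falls. For all genes the shares were 5.64% and 4.73% in the polysome pool, and 10.5% and 10.2% in the RNP pool. *Dnajc14*, listed here by its class although its product is an endoplasmic reticulum membrane protein, fell in both, from 38.8, 51.4 and 35.5 to 19.2, 19.8 and 24.0 FPKM in polysome libraries (log2 difference -0.95, SE 0.24, adjusted p = 0.0388). In RNP libraries it went from 62.4, 64.0 and 53.5 to 32.8, 33.2 and 29.8 FPKM (-0.89, SE 0.15, adjusted p = 0.00351). The groups were apart in both pools, but the polysome call held only where WT polysome replicate 3 was left out, and *Dnajc14* shares exon sequence with *Sarnp*, *Ormdl2* and *Tmem198b*.

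*Dnajc9*, a histone chaperone with a J-domain, rose in the polysome pool from 226, 197 and 224 to 326, 316 and 311 FPKM (log2 difference 0.56, SE 0.12, adjusted p = 0.0196), a call lost without any 1 of the KO polysome replicates. *Dnajc21*, a factor of ribosome assembly, fell in the RNP pool from 31.4, 38.7 and 43.9 to 25.0, 14.2 and 18.4 FPKM (-0.97, SE 0.24, adjusted p = 0.0186) and lost the call without KO RNP replicate 2 or 3. *Hspbap1*, which encodes a protein that binds HSPB1, fell there from 14.4, 21.4 and 17.8 to 8.95, 7.65 and 6.87 FPKM (-1.09, SE 0.25, adjusted p = 0.0143), a call lost without KO RNP replicate 3. In each of these 3 comparisons the groups did not overlap. *Dnajc8*, a spliceosome-associated protein and the most abundant of the class after *Dnajc9*, was called in neither pool.

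The other genes of the pathway, 43 partners and regulators outside the symbol families, gave 5 rises and 2 falls among 38 tested in the polysome pool, where 5.64% of all genes rose and 4.73% fell, and 6 rises and 3 falls among 36 tested in the RNP pool, where 10.5% rose and 10.2% fell. *Pfdn4*, a subunit of prefoldin, which hands unfolded actin and tubulin to CCT, fell furthest. It was at 569.7, 651 and 607 FPKM in WT and 59.4, 42.1 and 47.3 FPKM in KO RNP libraries (log2 difference -3.60, SE 0.13, adjusted p = 1.64e-06), and fell by 2.97 on the log2 scale in polysomes (adjusted p = 0.000265). *Pdcl3*, a phosducin-like partner of CCT, was at 46.0, 26.6 and 52.3 FPKM in WT and 7.84, 8.01 and 7.70 FPKM in KO polysome libraries (-2.21, SE 0.32, adjusted p = 0.00528), and its RNP log2 difference was -3.05 (adjusted p = 5.68e-05). In the other direction, *Txndc9*, another phosducin-like partner of CCT, and *Pfdn2*, another prefoldin subunit, rose in the RNP pool by 0.56 (SE 0.11, adjusted p = 0.00734) and 0.71 (SE 0.22, adjusted p = 0.0478). Heat shock factor *Hsf2* rose in polysomes from 0.667, 0.0640 and 1.92 to 14.6, 13.1 and 10.7 FPKM (2.99, SE 0.49, adjusted p = 0.00936), and passed the filter through the KO libraries, since 1 WT library reached 1 FPKM. *Hsf2* was also among the RNP rises and passed that filter in the same way, with WT RNP libraries at 0.500, 0.670 and 1.52 FPKM. Its rises are no independent support in either pool. *Fkbp4*, an HSP90 partner, had an RNP log2 difference of 1.86 (SE 0.26, adjusted p = 0.00164).

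A further promoter sequence concerned the members that heat shock factors are known to act on. The heat shock element was searched as a pair, GAANNTTC or TTCNNGAA, and as 3 alternating units of GAA and TTC separated by 2 bases. The pair was found in 22 of the 87 member windows (25.3%, against 15.1% of all windows), and the run of 3 units, which contains the pair, in 6 windows of *Hspd1*, *Hspe1*, *Hsph1* and *Dnajb6* (6.90%, against 0.603%). The *Hsph1* windows overlap each other and hold the same run, as do the *Dnajb6* windows, and *Hspd1* and *Hspe1* share theirs. The 6 windows are therefore not 6 separate stretches of DNA. The 22 windows belonged to 20 genes. Of these 15 were tested between genotypes in the polysome pool, where *Cct6a*, *Dnaja4* and *Hsph1* rose, *Dnajb4* fell and 11 were not called, and 14 in the RNP pool, where *Dnajb6*, *Hspe1* and *Hsph1* rose, *Dnajb4* fell and 10 were not called. Shown are 100 bases before the start of 3 genes with the run, those called between genotypes, with pairs in capitals.
Hsph1, chr5:149636337-149636436, minus strand, positions -100 to -1: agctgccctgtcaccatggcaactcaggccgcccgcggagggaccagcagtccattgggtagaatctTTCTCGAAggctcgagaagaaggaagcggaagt
Hspe1, chr1:55088023-55088122, plus strand, positions -125 to -26: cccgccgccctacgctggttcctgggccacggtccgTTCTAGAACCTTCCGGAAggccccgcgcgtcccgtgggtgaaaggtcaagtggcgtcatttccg
Dnajb6, chr5:29735798-29735897, plus strand, positions -100 to -1: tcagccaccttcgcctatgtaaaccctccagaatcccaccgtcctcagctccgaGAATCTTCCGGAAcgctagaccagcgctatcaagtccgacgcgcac
*Hspe1* and *Hspd1* are transcribed away from each other, and 285 bases of their windows are the same DNA read on opposite strands. The capitals printed for *Hspe1* are therefore the element of *Hspd1* too. *Hspe1* and *Hspd1* had RNP log2 differences of 1.11 (SE 0.27) and 0.65 (SE 0.29), of which the first passed the threshold, and the difference between the genes was not tested. The run of 3 units of *Hsph1* lies after its start and is not printed. The window of *Cct3* held neither element.

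The next question was whether the polysome-to-RNP ratio of a chaperone RNA differed between genotypes, tested with a genotype-by-pool interaction term fitted to all 12 libraries. Of 63 members tested 1 was called, *Hsp90aa1*, against 0.237% of all 10949 genes. An unadjusted p under 0.05 was found for 11 of the 63 members, and for 1220 (11.1%) of all genes. For *Hsp90aa1* the ratio was higher in KO by 0.78 on the log2 scale (SE 0.13, adjusted p = 0.0297). Its KO polysome libraries were far above the WT ones, while the RNP libraries of the genotypes were close together. The call was lost without KO polysome replicate 2 or 3, WT RNP replicate 2 or 3, or any 1 of the KO RNP replicates, and the difference ranged from 0.70 to 0.82 over all leave-outs, with an adjusted p of up to 0.116. It was also lost without the intensity trend (adjusted p = 0.315), with the replicate block (0.0640) and with the replicate block of each genotype (0.138).

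*Hspa5* and *Hsp90b1* came next, with log2 ratio differences of -1.05 (SE 0.23, adjusted p = 0.103) and 1.48 (SE 0.34, adjusted p = 0.114). *Dnajb1* and *Cct8* followed with -0.78 (SE 0.20, adjusted p = 0.154) and 1.37 (SE 0.40, adjusted p = 0.199). None of these passed the threshold. *Cct4*, which rose in both pools by similar amounts, gave 0.038 (SE 0.48).

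The last comparisons asked which chaperone RNAs were richer in the polysome pool and which in the RNP pool of each genotype. In WT 58 members were tested, of which 10 were higher in the polysome pool, where 7.97% of all 9574 genes were, and 4 lower, where 6.72% were. With 1 WT RNP library left out, 519 to 521 of all genes were higher and 259 to 266 lower, in place of 763 and 643, and 7 to 8 members were higher and 2 to 4 lower. In KO 59 were tested, of which 21 were higher, against 15.5% of all 9851 genes, and 8 lower, against 13.8%. Of those 8, *Dnajc2* and *Dnajc15* passed the filter only through their RNP libraries and are no independent support. The median log2 difference (polysome minus RNP) of the tested members was 0.38 in WT and 0.32 in KO, beside -0.09 and -0.04 for all genes. Of the calls 11 were shared in direction, 8 higher and 3 lower, which is 78.6% of the WT and 37.9% of the KO calls. The matching shares over all genes were not counted. KO replicates were closer to each other (r of log2 values 0.933 to 0.962) than WT replicates (0.883 to 0.932), so a call missed in WT and made in KO is not a measured difference between genotypes.

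*Hspa5* had the largest polysome excess of the members in WT, 7.21-fold by means, at 2.80 on the log2 scale (SE 0.23, adjusted p = 0.000183). In KO it was 1.75 (SE 0.11, adjusted p = 9.43e-06). *Dnajc9* was next, at 226, 197 and 224 FPKM in WT polysome and 38.1, 84.1 and 44.7 FPKM in WT RNP libraries, and at 67.2, 65.1 and 60.0 FPKM in the KO RNP libraries. Polysome libraries were above RNP libraries without exception, by 2.02 (SE 0.27, adjusted p = 0.00199) and 2.29 (SE 0.10, adjusted p = 1.08e-06).

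Of the 8 mitochondrial members 3 were called polysome-rich and 1 RNP-rich in each genotype. Over all genes 7.97% and 6.72% were so called in WT, and 15.5% and 13.8% in KO. *Hspd1* was at 43.8, 37.5 and 50.6 FPKM in WT polysome libraries against 10.9, 15.2 and 7.27 FPKM in RNP libraries (1.93, SE 0.31, adjusted p = 0.00461), and in KO at 57.2, 60.2 and 63.3 FPKM in polysome libraries (1.74, SE 0.16, adjusted p = 8.56e-05). *Dnaja3* was higher in the polysome pool by 1.82 in WT (adjusted p = 0.00153) and 1.63 in KO (adjusted p = 5.93e-05). *Hspe1* was called in WT (1.41, SE 0.29, adjusted p = 0.0135) and not in KO (0.55, SE 0.21, adjusted p = 0.0791), and the test of that difference gave -0.86 with adjusted p = 0.389. *Hspa9* was called in KO (0.73). *Dnajc11* went the other way in WT, by -0.80 (adjusted p = 0.0141, lost without WT RNP replicate 1), and *Dnajc15*, of the inner-membrane import machinery, in KO, by -1.95 (adjusted p = 0.0260, lost without KO RNP replicate 1 or 3). *Dnajc15* was at 0.366, 3.09 and 4.69 FPKM in KO polysome and 11.6, 6.73 and 17.9 FPKM in KO RNP libraries. It passed the filter only through the RNP libraries, so this RNP-rich call is no independent support.

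In the cytosol *Dnajb6* was at 443, 474 and 496 FPKM in WT polysome libraries, 2.58-fold the RNP mean, with log2 differences of 1.37 in WT (adjusted p = 0.000284) and 0.95 in KO (adjusted p = 0.00114). *Hsp90aa1* was polysome-rich by 0.75 in WT (adjusted p = 0.00410) and 1.53 in KO (adjusted p = 3.51e-06). *Dnaja4* was polysome-rich by 1.50 in WT (adjusted p = 0.0383), a call that held only where WT polysome replicate 1 was left out, and by 2.50 in KO (adjusted p = 9.36e-05). *Dnajc5*, the cysteine string protein, was called in WT, by 1.51 (adjusted p = 0.0416), and missed the threshold in KO at 0.96 (adjusted p = 0.0702), with a difference between genotypes of -0.55 (adjusted p = 0.788). It lost the WT call without WT polysome replicate 1 or 2 or WT RNP replicate 2 or 3. *Tcp1* was the 1 CCT subunit called in WT, by 0.88 (adjusted p = 0.0281), and it lost that call without WT polysome replicate 1 or 3 or any 1 of the WT RNP replicates.

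In KO 5 CCT subunits of 8 tested were polysome-rich, where 15.5% of all genes were. *Cct8* differed by 1.91 (SE 0.30, adjusted p = 0.00143) and *Cct7* by 1.56 (SE 0.23, adjusted p = 0.00102), and *Tcp1*, *Cct2* and *Cct3* were called too, *Cct2* not without KO RNP replicate 1. *Cct4* was not called, and its KO mean was lower in polysome than in RNP libraries. *Hspa4l*, an HSP110 relative, was at 14.1, 21.1 and 25.7 FPKM in KO polysome and 5.74, 2.03 and 3.97 FPKM in KO RNP libraries (2.15, SE 0.36, adjusted p = 0.00194). *Hsp90b1* was polysome-rich in KO by 1.95 (SE 0.23, adjusted p = 0.000262). *Hsph1*, *Hspa8*, *Dnaja1*, *Dnajc7*, *Dnajc3* and *Dnajb11* completed the polysome-rich calls in KO, of which *Dnajc3* was lost without KO polysome replicate 1 or KO RNP replicate 1 and *Dnajb11* held only where KO polysome replicate 3 was left out.

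**Figure D4:**
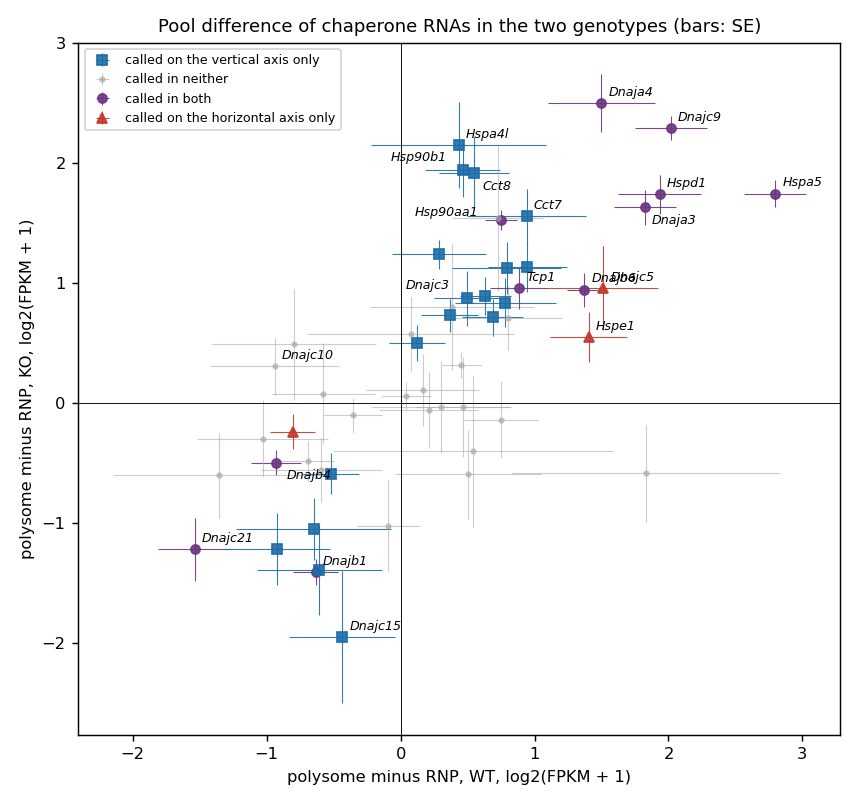
Log2 difference (polysome minus RNP, on log2(FPKM + 1)) of the 55 members tested in both genotypes, in WT on the horizontal axis and in KO on the vertical axis, with bars for the SE. *Hspa5*, *Dnajc9*, *Dnaja4*, *Hspd1* and *Dnaja3* are polysome-rich in both genotypes, and *Dnajb1*, *Dnajb4* and *Dnajc21* RNP-rich in both.

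Many of the tested members were J-domain genes. The class A and B list and the class C list held 7 and 15 of the 58 tested in WT, and 7 and 13 of the 59 in KO. Further J-domain genes stood in the endoplasmic reticulum and mitochondrial lists. The members called RNP-rich were J-domain genes, with 1 exception in KO, but other J-domain genes were called polysome-rich. In WT these were *Dnaja3*, *Dnaja4*, *Dnajb6*, *Dnajc5* and *Dnajc9*. In KO they were *Dnaja1*, *Dnaja3*, *Dnaja4*, *Dnajb6*, *Dnajb11*, *Dnajc3*, *Dnajc7* and *Dnajc9*. *Dnajb1* was at 187, 217 and 206 FPKM in WT polysome and 353, 245 and 362 FPKM in WT RNP libraries, and at 177, 149 and 169 FPKM in KO polysome and 407, 429.7 and 485 FPKM in KO RNP libraries. The pools did not overlap in either genotype, and the log2 differences were -0.63 (SE 0.17, adjusted p = 0.0360) and -1.41 (SE 0.11, adjusted p = 2.56e-05). The WT call held only where WT RNP replicate 2 was left out. *Dnajb4* was RNP-rich by -0.93 in WT (adjusted p = 0.0124) and -0.50 in KO (adjusted p = 0.00772), both lost without the intensity trend (adjusted p = 0.0917 and 0.0649). *Dnajc21* was RNP-rich by -1.54 in WT (adjusted p = 0.00768) and -1.22 in KO (adjusted p = 0.00772). In KO *Dnajc2*, a ribosome-associated factor, *Dnajc5g*, *Dnajc14* and *Hspbap1*, which has no J-domain, were called as well, and each lost its call without at least 1 KO library (KO RNP replicate 1 for all 4). *Dnajc2* was at 2.06, 0.741 and 0.898 FPKM in KO polysome and 4.82, 5.90 and 3.55 FPKM in KO RNP libraries. It passed the filter through the RNP libraries, so its call is no independent support.

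In the wider list 3 partner genes were polysome-rich and 4 RNP-rich in WT, of 35 tested, where 7.97% and 6.72% of all genes were, and 11 and 5 in KO, of 38, where 15.5% and 13.8% were. *Ahsa1*, the activator of the HSP90 ATPase, differed most in both, by 1.61 in WT (adjusted p = 0.00136) and 1.76 in KO (adjusted p = 3.29e-05). *St13*, which slows the HSP70 cycle, and *Sil1*, an exchange factor for BiP, followed in WT with 1.22 and -1.05, and *Sugt1* and *Hscb* in KO with 1.50 and -1.47. No partner gene was called for a genotype effect on the ratio, of 38 tested.

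In all 33 of the 83 members share exon sequence with another annotated gene, among them *Cct6a*, *Cct7*, *Cct8*, *Tcp1*, *Dnaja3*, *Dnaja4*, *Dnajb6*, *Dnajc7*, *Dnajc14*, *Dnajc30*, *Hsp90b1*, *Hspd1* and *Hspe1*, and their values are uncertain to that extent. *Cct3*, *Cct4*, *Hspa5*, *Hsph1*, *Hsp90aa1*, *Dnaja2*, *Dnajb4* and *Dnajc3* share none.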

How the data were processed

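Pooled gradient fractions of WT and *Lsm14b*-KO oocytes gave RNA that was purified, amplified by Smart-seq2 and sequenced in 150 bp read pairs. The authors trimmed the reads, aligned them to mm10 with TopHat2 (2.0.13) and deposited FPKM values per gene and library, made with Cufflinks (2.2.1) and its companion Cuffnorm; the annotation release and any use of strand are not given in the sources used here. The sources differ on the gradient and on the library kit. Deposited columns of log2 changes, p-values and q-values from Cuffdiff (54 columns) were not used, and no column of values per library lacked a sample. Libraries were mapped to groups by their titles.

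FPKM are not counts, so no count model was fitted. Depth was estimated from the steps between low FPKM of transcripts of at least 1000 bases (200 subtracted for effective length); 65.9 to 79.5% of those values lay within 0.15 of a whole number of fragments, too few to recover counts. With 3 libraries a group, this depth makes values near 1 FPKM imprecise.

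Genes with at least 1 FPKM in at least 3 libraries of a comparison were tested by limma (3.58.1, R 4.3.3) with an intensity trend on log2(FPKM + 1), without a replicate block, and p-values were adjusted by Benjamini-Hochberg over all genes tested. Fold changes on this scale understate those of low genes, and folds of means are of FPKM itself. Each 2-group comparison used its own 6 libraries, and the ratio all 12. The script was tested on simulated data. Alternatives were other pseudocounts and filters, median and quantile scaling, no trend, a replicate block and each library left out in turn. Exon overlaps came from GENCODE M21 on GRCm38 and promoters from RefSeq (GRCm38.p6). Python 3.11.15 with pandas 2.3.3, numpy 2.4.6 and matplotlib 3.10.9 was used.

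The members, roles, partner list and tests were chosen with earlier results of these data known. By the rule for named genes, the CCT subunits, the 3 most abundant members of each role and *Hspa1a* with *Hspa1b* are described. So are every called member (beyond 12 in a comparison, the 12 largest by value) and the 3 largest called partner genes of each comparison. *Dnajb9*, *Dnajc10*, *Txndc9*, *Pfdn2*, the uncalled values of *Hsp90b1* and the RNP values of *Hsf2* were added after values were seen.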

Additional observations from a re-analysis of the deposited data

Results flagged for a closer look

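Of the 4 results below, that of *Hsp90aa1* is listed because its test passed the threshold. The others are listed because their groups did not overlap and lay in opposite directions in the pools or in the genotypes. How many of all genes show such a pattern was not counted. These picks from among the members are therefore not set apart from other genes. For *Hsp90aa1* the polysome-to-RNP ratio was higher in KO by 0.78 on the log2 scale, and the test of that difference passed the threshold (limma interaction, SE 0.13, adjusted p = 0.0297). The call held under 11 of 21 alternatives and was lost without the intensity trend (adjusted p = 0.315), with either replicate block and in 7 of 12 leave-outs.

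For *Dnajb1* and *Hsp90b1* all KO libraries lay on one side of all WT libraries in the polysome pool and on the other side in the RNP pool. *Dnajb1* was lower in KO polysomes and higher in KO RNP libraries, a difference between the pools of -0.78 (SE 0.20, adjusted p = 0.154). *Hsp90b1* was higher in KO polysomes and lower in KO RNP libraries, a difference of 1.48 (SE 0.34, adjusted p = 0.114). Neither passed the threshold.

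*Dnajc10*, a disulfide reductase of the endoplasmic reticulum, had all WT polysome libraries below the WT RNP libraries, with means of 5.17 ± 2.77 (SD, n = 3) and 9.96 ± 2.00 FPKM. Its KO polysome libraries all lay above the KO RNP libraries, with means of 13.3 ± 0.596 and 10.7 ± 2.30 FPKM. The difference between genotypes was 1.25 (SE 0.52, adjusted p = 0.392) and did not pass the threshold. Groups of 3 libraries were not searched for single outlying libraries.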

How the results depend on the processing

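The member counts moved most in the polysome pool. Of 15 members called between genotypes there, 6 were called without a filter on low values, 5 without the intensity trend, and 4 to 13 with 1 library left out. For the ratio the 1 call became 0 without the trend, with a replicate block and with a replicate block of each genotype, and 0 to 2 with 1 library left out. The WT pool comparison went from 14 to 7 without the trend. Over leave-outs it gave 10 to 13 calls, the RNP comparison between genotypes 14 to 19 (19 as reported) and the KO pool comparison 21 to 31 (29 as reported). *Cct5* between genotypes in the RNP pool was the only reversal, at 0.016 without WT RNP replicate 1 (adjusted p = 0.959) and down to -0.18 without WT RNP replicate 3. Of the single-gene values 1044 kept direction and side of the threshold, 170 lost the call, 7 gained one and 1 reversed.

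The sources do not say whether same-numbered libraries belong together. Their deviations correlated between -0.021 and 0.026, which cannot show whether they came from the same gradient. With the replicate block 11 polysome, 18 RNP, 12 WT pool and 29 KO pool calls were made. Over all genes, polysome calls between genotypes numbered 538 higher and 451 lower as reported, 307 and 238 without a filter, 276 and 232 without the trend, and 341 and 331 with the block. The ratio gave 26 calls as reported, 6 without the trend, 11 with the block and 0 with the block of each genotype. The WT pools gave 763 and 643, and 445 and 283 without the trend. With 1 library left out they gave 519 to 637 and 259 to 609, and the RNP comparison between genotypes 538 to 1053 and 707 to 870 (1044 and 1013 as reported). The causes were not tested.

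Depth, estimated and not counted, limits members near or below 1 FPKM, and 3 libraries a group limit all calls.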
